A study of Saccharomyces cerevisiae with 18 samples.

Results

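Accessible chromatin was examined at the genes of the mitochondrial ribosome and of mitochondrial protein import and folding in budding yeast passing through the yeast metabolic cycle. The genes were taken by symbol: MRPL, MRPS, RSM, MRP, TIM or TOM followed by digits only, plus MEF1, MEF2, TUF1, MSS51, PET123, PAM16, PAM18, SSC1, MGE1, HSP60 and HSP10. This gave 101 of 6002 nuclear coding genes, of which 72 were classed as ribosome and translation and 29 as import and folding. Each gene was represented by its peak with the highest mean CPM, the count scaled to a common library size, among peaks within 500 bp of the annotated 5′ end of its coding model. A peak was found for 37 of the 101 genes (36.6%), and no peak stood for 2 of them. The symbols also take in 3 genes whose proteins belong elsewhere: TOM1, a ubiquitin ligase, TIM11, a subunit of the ATP synthase, and MRP8, which is not an established ribosomal protein. Of these 3, only MRP8 had a peak.

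The assay was ATAC-seq, which marks open chromatin by where a transposase can cut and tag the DNA, and the table held counts for 2086 peaks in 18 libraries. Cells came from a fermenter and were fixed, and their nuclei were transposed; the strain is not given in the sources used here. Each of 18 ordered time points had a single library, and the labels gave each a phase. Reductive Charging comprised time points 1 to 5 and 16 to 18 (8 libraries), Oxidative comprised 6 to 10 (5 libraries) and Reductive Building comprised 11 to 15 (5 libraries). Time points of the same phase served as replicates, so p-values measure only the spread between time points of a phase, which may be technical. In Reductive Charging that spread takes in both ends of the series. Each library is bulk chromatin, in which fewer cells with an open site and a less open site in every cell cannot be told apart. The series was collected in 2 batches that the labels do not assign to libraries, so batch and phase cannot be told apart.

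Most mitochondrial proteins are encoded in the nucleus, made in the cytosol and carried into the organelle. The TOM complex of the outer membrane admits them, small Tim chaperones escort hydrophobic ones across the intermembrane space, and the TIM complexes of the inner membrane, with the Hsp70 motor, draw them in. Mitochondrial ribosomes, whose proteins arrive by this route, make a few subunits of the respiratory chain, and genes for mitochondrial ribosomal proteins are known for strongly periodic RNA in the metabolic cycle. The question put to the data was whether accessibility at the ribosome genes and at the import genes moved over the 3 phases.

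Library totals ranged between 21254 and 29314373 counts. Of the 18 libraries, 13 had at most 10% of the 2042 nuclear peaks at 0 counts and are called well covered: 6 Reductive Charging (time points 1 to 5 and 17), 5 Oxidative and 2 Reductive Building (time points 12 and 14). In the other 5, time points 11, 13, 15, 16 and 18, between 6 and 33 of the 37 peaks had 0 counts. Within the well-covered libraries the 37 peaks together took between 1.54% and 1.86% of nuclear counts. A count of 3, the limit that a count of 0 allows, was worth between 0.102 and 141 CPM by library totals, for counting error only.

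A peak was present near 24 of the 72 ribosome and translation genes (33.3%) and near 13 of the 29 import and folding genes (44.8%), against 2664 of 6002 nuclear coding genes (44.4%). Proteins of the large ribosomal subunit had the lowest share among the main roles, 8 of 38 (21.1%), while the small subunit had 12 of 29 (41.4%). The translation factors had 3 of 4, namely TUF1, MEF2 and MSS51, and MEF1, an elongation factor, had none. MRPL10, a large subunit gene often used to mark the cycle, had no peak within 500 bp. On the import side the small Tim chaperones had 4 of 5 (TIM9, TIM10, TIM12 and TIM13, but not TIM8), the outer membrane complex 3 of 8 and the inner membrane complexes 3 of 7. The motor and chaperonins had 3 of 7: SSC1, the matrix Hsp70, TIM44, its anchor at the channel, and HSP10, the partner of the HSP60 chaperonin. TOM40, the channel of the outer membrane, TOM22 and TOM70, receptors, HSP60, MGE1, PAM16 and PAM18 had none. At 250 bp the ribosome class kept 21 genes and the import class 12, and at 1000 bp they had 29 and 15.

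The peaks were seldom the property of 1 gene. Another coding gene had its 5′ end within 500 bp of 21 of the 24 ribosome peaks (87.5%) and 10 of the 13 import peaks (76.9%), beside 67.6% of all linked coding genes. Only MRPL39, MRPS12, MRP8, TIM9, HSP10 and TOM6 had an unshared peak. In 18 ribosome and 7 import cases a partner lay on the opposite strand. Examples were MRPL15 with ATG39, RSM10 with ENA1, TIM23 with ACC1, TIM21 with RPL26B, TIM13 with RNR4 and TOM71 with DMA1. Whether such a peak serves the mitochondrial gene or its neighbour was not tested.

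The 5′ end lay inside the peak for 14 of 24 ribosome genes and 7 of 13 import genes, against 47.9% of all linked coding genes. All 3 outer membrane genes with a peak, TOM20, TOM6 and TOM71, were of this kind, as were the 3 translation factors. The TOM71 peak also held the 5′ ends of DMA1 and COX23. None of the 4 small Tim peaks held the 5′ end of its gene. That of TIM13 ended 304 bp upstream of the TIM13 5′ end and lay 115 bp from the 5′ end of RNR4. The TIM10 peak lay wholly beyond the 3′ end of TIM10, and 66 bp from the 5′ end of GPA1. TIM10 and TIM23 each had 2 peaks within 500 bp, of which only the one with the higher mean CPM is described. In 6 genes the peak lay downstream of the 5′ end, namely MRPS12, MRPS8 and RSM25 among the ribosome genes and TIM9, TIM10 and TIM12 among the import genes. The RSM25 peak (chromosome IX, 187669 to 188394, build R64) began 390 bp downstream of the RSM25 5′ end, with 55.8% of its length in the RSM25 coding sequence, and its far edge lay 37 bp from the 5′ end of LYS12, a gene of lysine synthesis. The TIM9 peak (chromosome V, 117281 to 118336) covered RPR1, the RNA of RNase P. Transfer RNA genes lay under the peaks of TIM13, MRPL3, MRPS35 and RSM26.

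**Figure D1:**
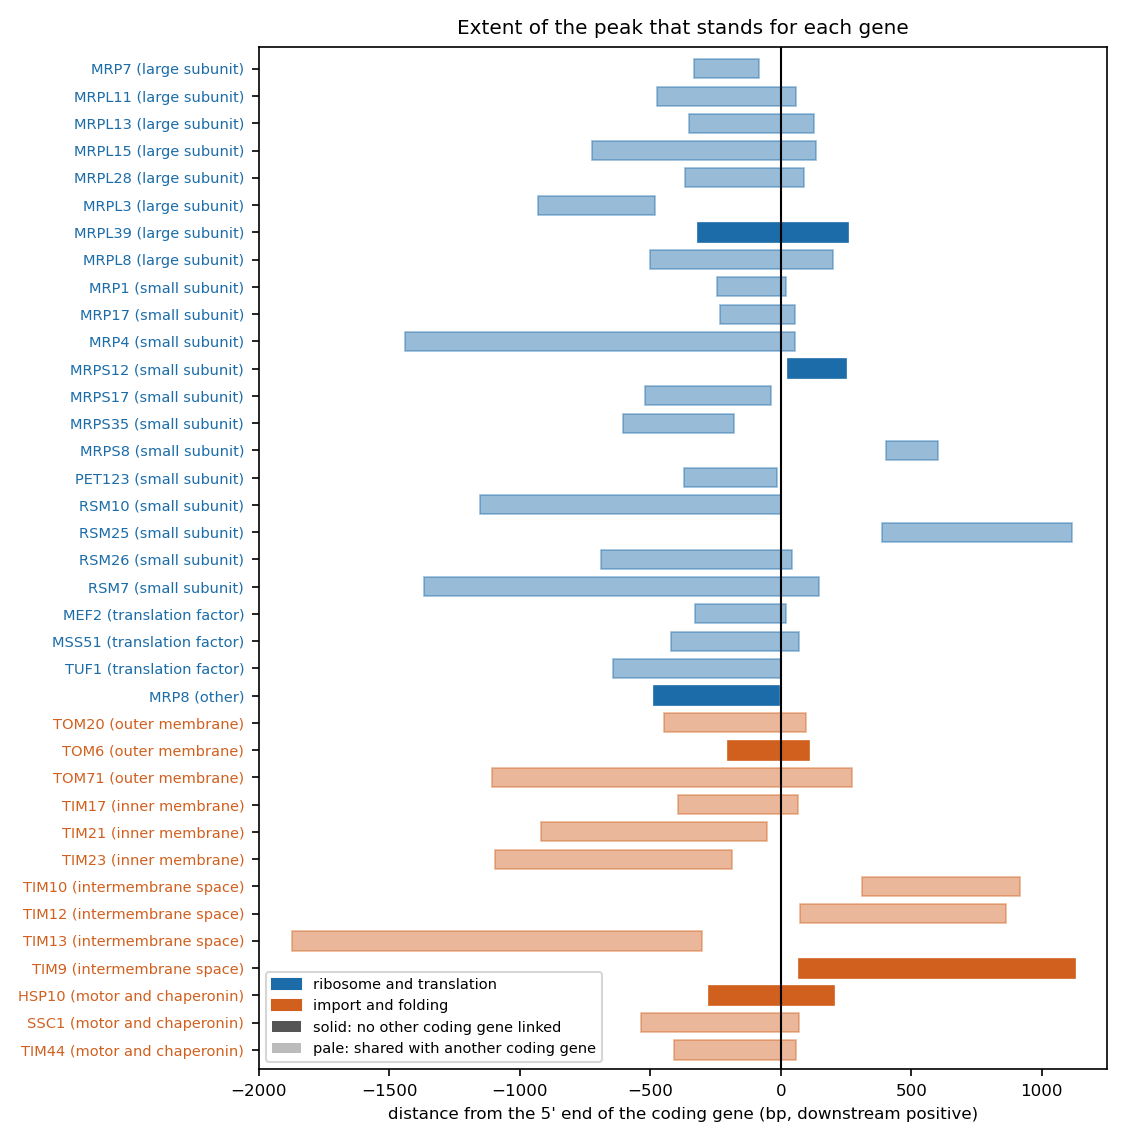
Extent of the peak that stands for each of the 37 genes, in bp from the 5′ end of the coding model with downstream positive; solid bars are peaks linked to no other coding gene. Of the bars, 21 cross 0, 6 lie wholly to its right, and 6 are solid.

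Levels are given as CPM after TMM scaling, and per kb of peak where genes are compared. The highest median over the 13 well-covered libraries was 893 CPM per kb at TIM23, the channel subunit of the presequence translocase (chromosome XIV, 661817 to 662725). TIM9 followed with 702, MRPL15, a large subunit gene, with 614, RSM10, a small subunit gene, with 483 and TIM13 with 464 CPM per kb. The lowest of the 37 was RSM25 with 37.5 CPM per kb. The 12 most accessible peaks were 5 ribosome and 7 import peaks, and the other 25 were 19 ribosome and 6 import peaks. On mean CPM by library totals, without TMM scaling, over all 18 libraries, the median peak had 61.2 CPM per kb in the ribosome class and 104 CPM per kb in the import class, beside 100.1 CPM per kb for all peaks that stand for a coding gene. Median lengths were 480 bp in the ribosome class and 609 bp in the import class, beside 622 bp for all such peaks.

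The spread between libraries was wider on median among the less accessible peaks, though the ranges of the 2 groups overlapped. Among the 12 most accessible peaks the SD of log2 CPM over the 13 libraries was between 0.23 and 0.55, on median counts of 1372 to 15579 per library. Among the other 25 it was between 0.31 and 2.46, on median counts of 148 to 950. The median SD was 0.36 in the first group and 0.82 in the second. Peaks of like counts also differed, as MRPL13 (median count 488, SD 1.38) did from MRPL39 (487, SD 0.61). PET123, a small subunit gene, had the widest spread. Its levels were 31.0, 24.2, 33.9, 46.9 and 23.0 CPM at time points 1 to 5, 27.6, 29.5, 11.0, 8.87 and 20.8 CPM at the Oxidative time points 6 to 10, 0 and 18.1 CPM at the Reductive Building time points 12 and 14, and 0.56 CPM at time point 17. Its low values thus fell in single libraries of both reductive phases. TIM12, a small Tim of the inner membrane, had the narrowest spread, between 136 and 218 CPM per kb over the 13 libraries.

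**Figure D2:**
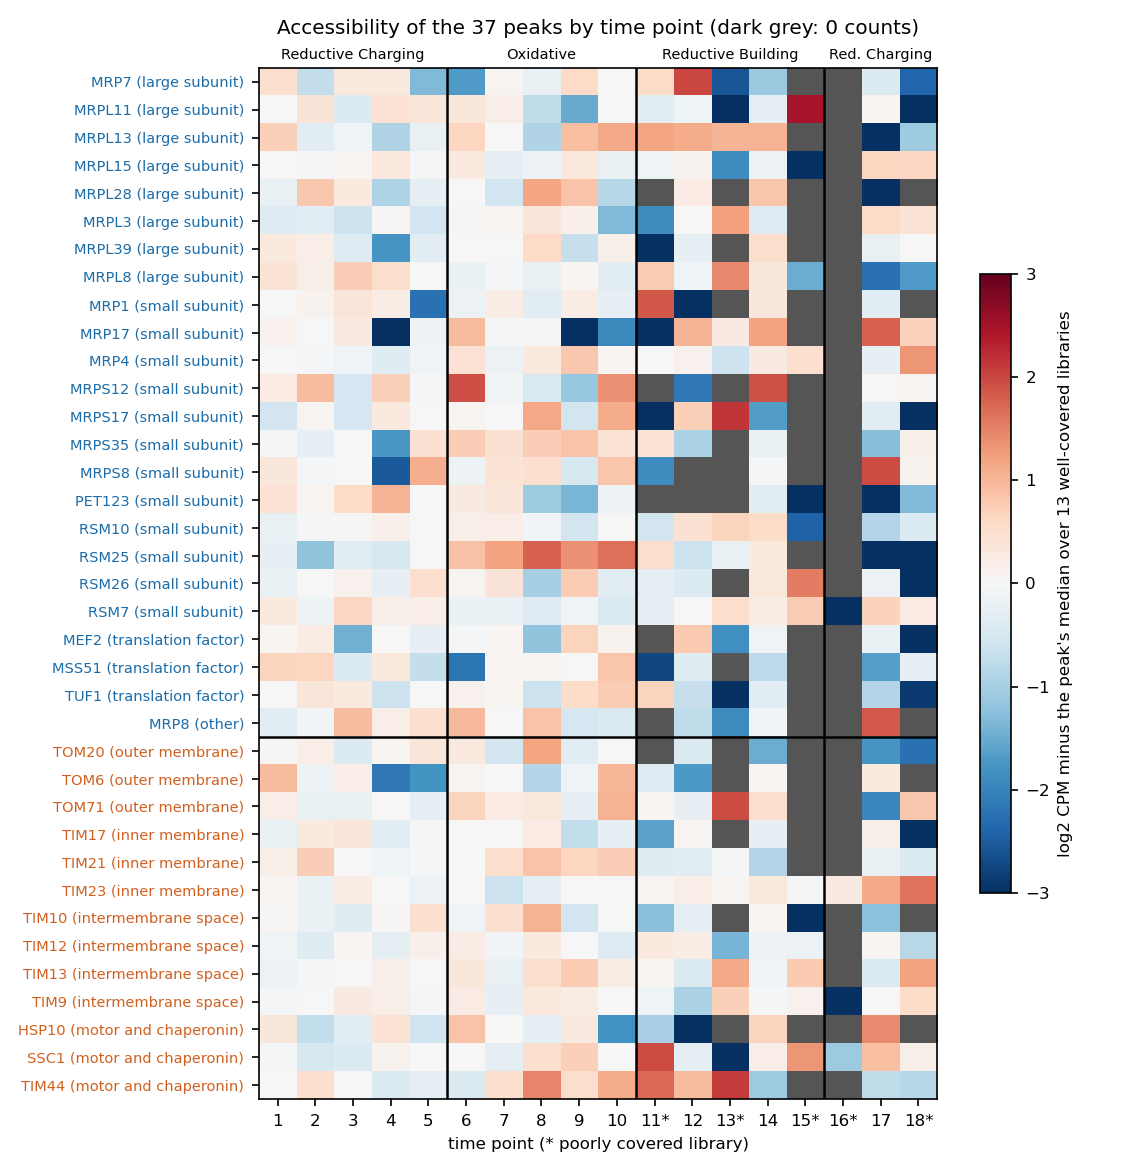
Log2 CPM of each of the 37 peaks (rows) at each time point (columns), minus the peak's median over the 13 well-covered libraries; dark grey cells have 0 counts and asterisks mark the 5 poorly covered libraries. The RSM25 row is above its median at every Oxidative time point, and time points 15 and 16 are mostly grey.

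Each class was followed by its median log2 CPM per kb minus that of all nuclear peaks in the same library. In the well-covered libraries the ribosome class was below the nuclear median in every phase, at −0.45 ± 0.11 in Reductive Charging (SD, n = 6), −0.26 ± 0.05 in Oxidative (n = 5) and −0.56 ± 0.29 in Reductive Building (n = 2). The import class was at 0.13 ± 0.15, 0.40 ± 0.43 and −0.33 ± 0.05 in the same order of phases. The ribosome class was below the import class in 12 of the 13 libraries, and at time point 14 the difference was 0.01. Within the Oxidative phase the import median was 0.26, 0.56, 0.99, −0.19 and 0.40 at time points 6 to 10, a range wider than the gap between its phase means. The 5 ribosome values there lay between −0.33 and −0.20, above all but 1 of the 6 Reductive Charging values, which ran between −0.60 and −0.31. These medians describe the members with a peak and carry no test.

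**Figure D3:**
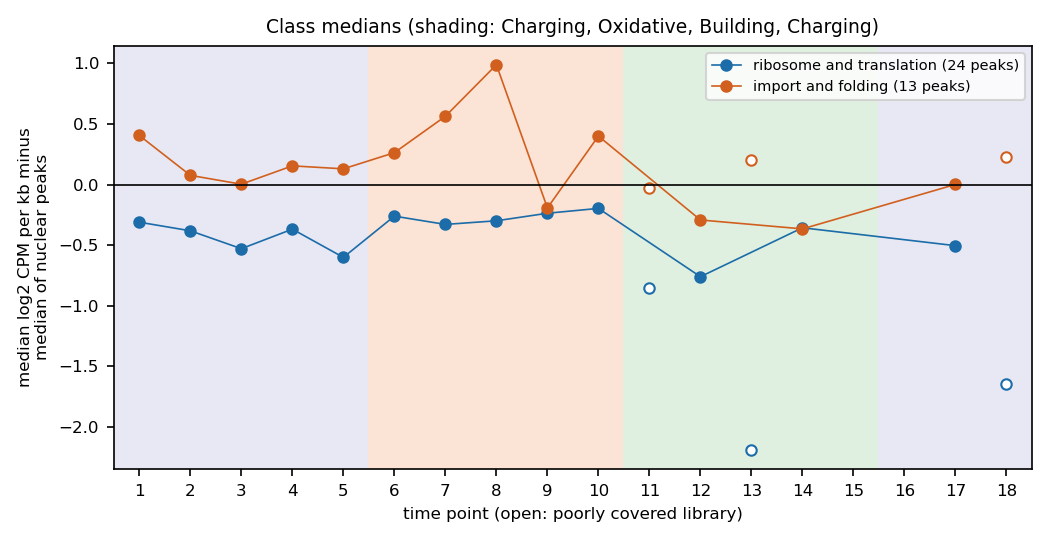
Median log2 CPM per kb of the ribosome and translation peaks (24) and the import and folding peaks (13) minus the median of all nuclear peaks, by time point; open points are poorly covered libraries, and time points 15 and 16, where most nuclear peaks were at 0, are left out. The import line is highest at time point 8 (0.99), and both lines are below 0 at the filled Reductive Building points.

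The comparison of Oxidative with Reductive Charging asks how accessibility differs between the respiratory phase and the phase before it. With all 18 libraries, no peak passed an edgeR adjusted p of 0.05, so 0 of 37 members were called (background 0.0%). At an unadjusted p of 0.05 there were 52 peaks (2.49%), 1 of them a member, RSM25, and limma-voom with library quality weights called RSM25 on the same 18 libraries (log2 fold change 1.81 ± 0.29 SE, adjusted p = 0.00248), along with 4.79% of all peaks. In the 13 well-covered libraries 2 members were called (5.41%), against 2.78% of all peaks (58 of 2086). Both were small subunit genes: RSM25 was higher in Oxidative, as were 1.49% of all peaks, and RSM7 was lower, as were 1.29%. No import peak was called.

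RSM25 had 50.1, 63.0, 93.5, 70.3 and 86.6 CPM at Oxidative time points 6 to 10, against 23.0, 11.8, 21.9, 19.6, 27.2 and 2.75 CPM at Reductive Charging time points 1 to 5 and 17. Every Oxidative value was above every Reductive Charging value, which held for no other member and for 4.27% of all peaks in either direction. The poorly covered time point 18, at 1.71 CPM, was also below them. The 0 counts at time point 16 give it no place, since they allow up to 141 CPM by library total, before TMM scaling (factor 1.82). The log2 fold change was 2.03 ± 0.45 (SE; edgeR adjusted p = 0.0426), with means of 72.7 CPM in Oxidative and 17.7 CPM in Reductive Charging. The call ended when any of time points 1 to 5, 8, 9 or 10 was left out, with adjusted p up to 0.139, while the log2 fold change stayed between 1.80 and 2.19 over the 13 omissions. Within time points 1 to 7 alone it was 1.45 ± 0.39 with an edgeR adjusted p of 0.197. As given above, 55.8% of the peak lies in the RSM25 coding sequence, and the RSM25 5′ end is outside it. The rest of the peak runs past the 3′ end of RSM25, at 187990, towards the 5′ end of LYS12.

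RSM7, a small subunit gene, had 421, 426, 373, 451 and 361 CPM at the Oxidative time points, against 599, 435, 744, 549, 561 and 788 CPM at the Reductive Charging ones. The groups overlapped only through time point 2, which was below time point 9; the poorly covered time points 16 and 18 had 51.8 CPM, on 2 counts, and 582 CPM. The log2 fold change was −0.60 ± 0.16 (edgeR adjusted p = 0.0450), with means of 407 CPM in Oxidative and 612 CPM in Reductive Charging. The peak (chromosome X, 638827 to 640341) covered the 5′ ends of RSM7 and of YJR115W on the opposite strand. The call held in 3 of 13 omissions, those of time points 6, 12 and 14, and ended without any of the other 10 (highest adjusted p = 0.153). It also ended under nuclear peaks only (adjusted p = 0.0550), relative log expression factors (0.0529), limma-voom (0.0652) and library totals, where the log2 fold change was −0.14 and the median of all peaks 0.52.

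Other members were not called. The next largest positive log2 fold changes were MRPS35, a small subunit gene (0.94 ± 0.47), and TIM44 (0.86 ± 0.46), and the most negative were MRP17, also of the small subunit (−0.61 ± 0.79), and PET123 (−0.45 ± 0.94). At the strongest import peaks, TIM13 had 917, 621, 1009, 1239.5 and 854 CPM at the Oxidative time points and 639.5, 714, 735, 813, 727 and 543 CPM at the Reductive Charging ones, which overlap. Its log2 fold change was 0.40 ± 0.17 (edgeR adjusted p = 0.217). TOM71, a receptor related to TOM70, had a log2 fold change of 0.73 ± 0.34 (adjusted p = 0.291), SSC1 of 0.13 ± 0.26 and TUF1, the mitochondrial elongation factor Tu, of 0.32 ± 0.29. TIM23 had 812, 516, 665, 810.1 and 825 CPM in Oxidative and 851, 706, 944, 809.8, 724 and 1791 CPM in Reductive Charging, and a log2 fold change of −0.43 ± 0.22. MRPL15 was at −0.17 ± 0.17, and MRP8 at −0.39 ± 0.44.

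By direction alone, 14 of 24 ribosome peaks and 10 of 13 import peaks had a log2 fold change above 0, against 51.5% of all peaks. The median log2 fold change was 0.08 in the ribosome class and 0.20 in the import class, beside 0.02 for all peaks, and median standard errors in the 2 classes were 0.43 and 0.32. All 4 small Tim peaks and all 3 outer membrane peaks were above 0, and the largest of them, TOM71, did not pass the adjusted threshold. As given above, none of the 4 small Tim peaks holds the 5′ end of its gene. Scaling by library totals alone moved the median of all peaks to 0.52, and the class medians to 0.60 for ribosome and 0.69 for import. Library totals take in peaks of the mitochondrial genome. These held 46.7% to 65.5% of counts in the well-covered Reductive Charging libraries and 16.0% to 46.7% in the Oxidative ones. Whether this share lies behind the shift was not tested. Under library totals MRP4, a small subunit gene, and TIM13 passed as well as RSM25, as did 5.47% of all peaks (114 of 2086).

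**Figure D4:**
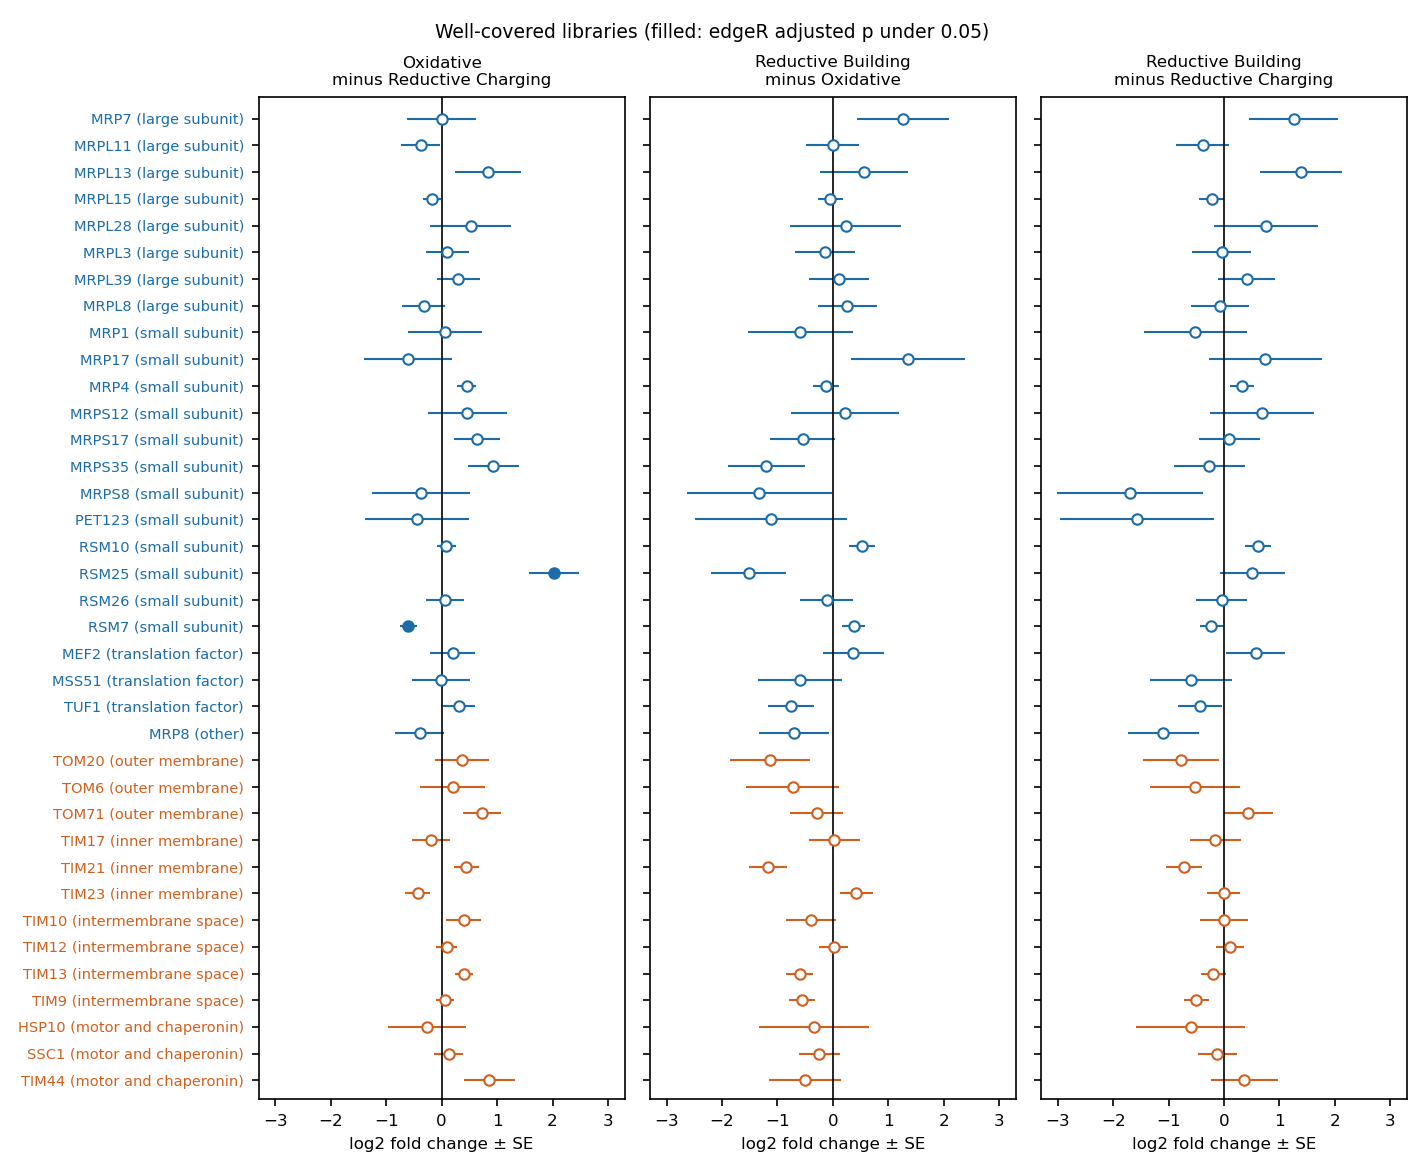
Log2 fold change ± SE of each of the 37 peaks in the 3 comparisons of the 13 well-covered libraries; filled points passed an edgeR adjusted p of 0.05. The filled points are RSM25 (2.03) and RSM7 (−0.60) in Oxidative minus Reductive Charging, and the other 2 panels have none.

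The comparison of Reductive Building with Oxidative addresses the exit from respiration. No member was called, either with all 18 libraries (background 0.0%) or in the well-covered ones (1.49%, 31 of 2086 peaks). At an unadjusted p of 0.05 in the well-covered libraries there were 5 members of 37, against 15.5% of all peaks, and with all libraries there were 0 members and 101 peaks (4.84%). DESeq2 called 1 member of 37 in the well-covered libraries, against 4.99% of all peaks (104 of 2086). It was TIM21, a subunit of the presequence translocase, which is described here after its values were seen. TIM21 had 76.4 and 52.8 CPM at Reductive Building time points 12 and 14, against 96.7, 139, 175, 152 and 161 CPM in Oxidative. Both Reductive Building values were below all 5 Oxidative values, as were the 74.8, 94.1 and 0 CPM of the poorly covered time points 11, 13 and 15. The log2 fold change was −1.17 ± 0.34 (edgeR adjusted p = 0.0886; DESeq2 −1.22, adjusted p = 0.0148). The TIM21 peak (chromosome VII, 555021 to 555884) held the 5′ end of RPL26B, a cytosolic ribosomal protein gene.

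RSM25 had 17.5 and 33.4 CPM in the 2 well-covered Reductive Building libraries, below all 5 Oxidative values, as were the 39.2, 23.4 and 0 CPM of time points 11, 13 and 15, and a log2 fold change of −1.52 ± 0.67 (edgeR adjusted p = 0.285). RSM10 had 768 and 811 CPM in Reductive Building, against 633, 640.3, 523, 382 and 552 CPM in Oxidative. Those values did not overlap, but the poorly covered time points 11, 13 and 15, at 383, 890.1 and 104 CPM, fell on both sides of them. The log2 fold change was 0.53 ± 0.24 (adjusted p = 0.307). Values of 7 members did not overlap between the phases, 5 ribosome and 2 import peaks (RSM25, RSM7, RSM10, MRP17, MRPS35, TIM21 and TIM23), against 20.0% of all peaks. The largest positive log2 fold changes were MRP17 (1.36 ± 1.03), MRP7, a large subunit gene (1.26 ± 0.83), and MRPL13, also large subunit (0.56 ± 0.80). The most negative after RSM25 were MRPS8, a small subunit gene (−1.32 ± 1.31), and MRPS35 (−1.20 ± 0.69).

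In this comparison 10 of 24 ribosome peaks and 3 of 13 import peaks were above 0, against 51.4% of all peaks. Median log2 fold changes were −0.08 for ribosome and −0.40 for import, beside 0.02 for all peaks. Among import roles all 3 outer membrane peaks and all 3 motor and chaperonin peaks were below 0, as were 48.6% of all peaks, while TIM23 (0.43 ± 0.30), TIM17 and TIM12 were above it. The sign of MRP7 rested on time point 12, where it had 50.1 CPM, against 5.65 CPM at time point 14, and without time point 12 its log2 fold change was −1.04. Leaving out time point 14 leaves Reductive Building 1 library, time point 12, that is assumed to vary like the other phases. The log2 fold changes of MRP1, MRPS8, PET123 and HSP10 were then −4.97, −11.41, −11.49 and −5.44. They rest on values near the floor at time point 12, where MRPS8 and PET123 had 0 counts and MRP1 and HSP10 had 0.66 and 0.60 CPM. At time point 14 MRP1 and HSP10 had 25.7 and 38.8 CPM. TIM9 then had a log2 fold change of −1.15; it had 386 and 717 CPM at time points 12 and 14, against 628 to 930.1 CPM in Oxidative.

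Reductive Building set against Reductive Charging compares both reductive phases. No member was called with all libraries (background 0.0%) or in the well-covered ones (1.44%, 30 of 2086 peaks). At an unadjusted p of 0.05 there were 3 members, RSM10, TIM21 and TIM9, against 13.8% of all peaks, and with all libraries 0 members and 149 peaks (7.14%). RSM10 at 768 and 811 CPM in Reductive Building was above all 6 Reductive Charging values of 475, 541, 569, 619, 557 and 305 CPM, with a log2 fold change of 0.61 ± 0.23 (edgeR adjusted p = 0.253). TIM21 at 76.4 and 52.8 CPM was below all 6 Reductive Charging values, whose range was 83.1 to 162 CPM and whose median was 94.9 CPM. With the poorly covered libraries the phases overlapped, since time point 13 had 94.1 CPM in Reductive Building and time point 18 had 73.2 CPM in Reductive Charging. Its log2 fold change was −0.72 ± 0.33 (adjusted p = 0.350).

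Values of 4 members did not overlap (RSM10, TIM21, MRP4 and MRPL13), against 19.6% of all peaks. MRPL13 had the largest log2 fold change, 1.39 ± 0.75, with means of 43.1 CPM in Reductive Building and 16.3 CPM in Reductive Charging. MRP7 (1.26 ± 0.80) and MRPL28, another large subunit gene (0.75 ± 0.94), followed, and MRPS8 (−1.69 ± 1.32), PET123 (−1.57 ± 1.39) and MRP8 (−1.10 ± 0.64) were the most negative. Of the ribosome peaks 11 of 24 were above 0 and of the import peaks 3 of 13, against 52.0% of all peaks. The medians were −0.04 for ribosome and −0.16 for import, beside 0.03 for all peaks. Without time point 14, 5 members were called lower here too, and 6.57% of all peaks were called.

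**Figure D5:**
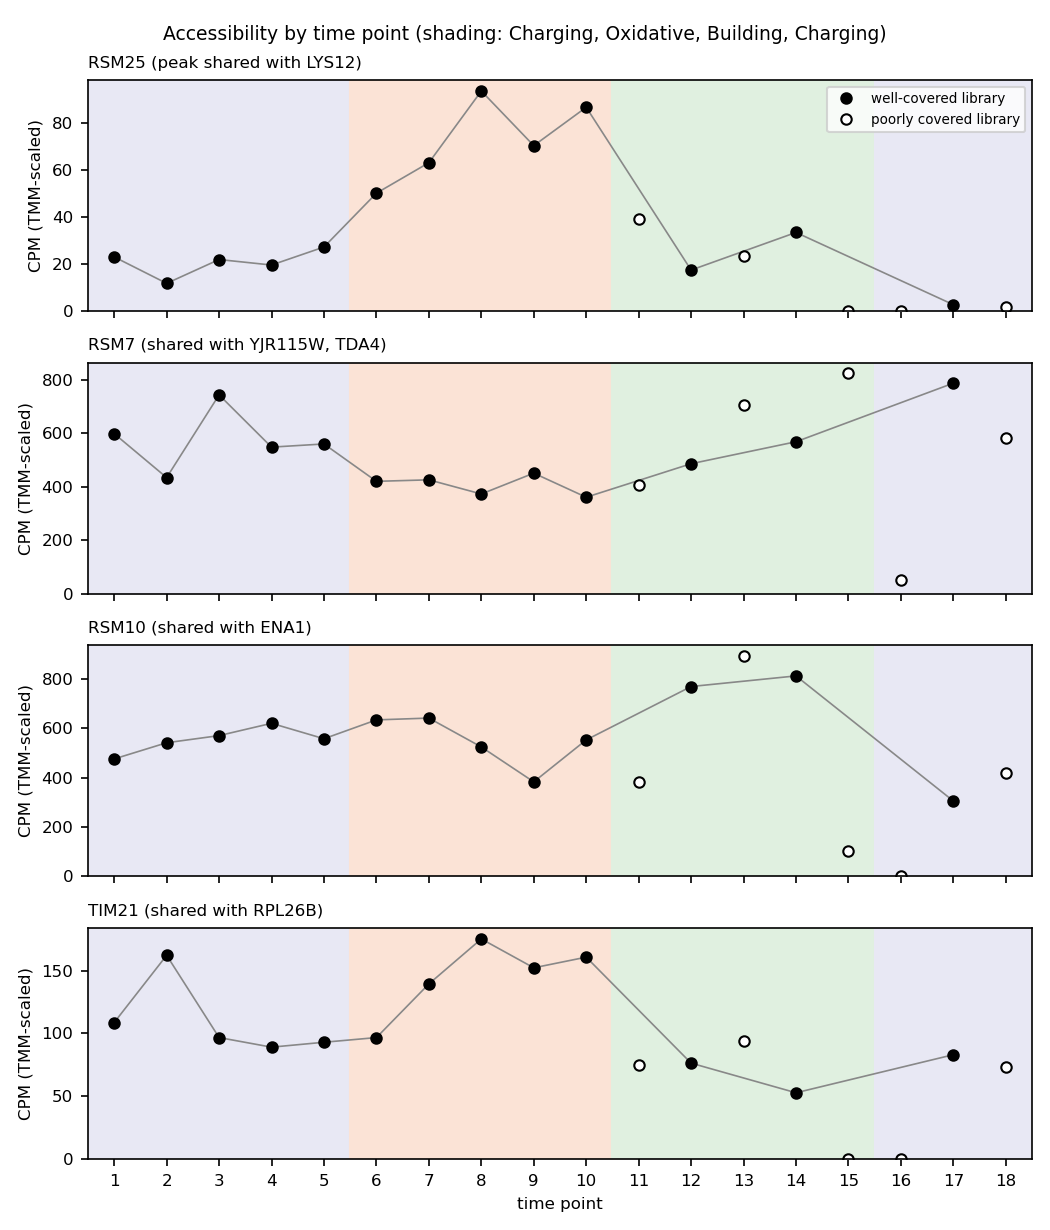
CPM after TMM scaling of the RSM25, RSM7, RSM10 and TIM21 peaks at each time point; filled points are well-covered libraries and open points poorly covered ones, and shading marks the phases. RSM25 is highest at time point 8 (93.5 CPM), and RSM10 is higher at time points 12 and 14 (768 and 811 CPM) than in any other well-covered library.

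Other genes of the same pathways, outside the symbol rule, were taken from 3 lists. A peak was found for 4 of 10 further mitochondrial ribosome genes, 3 of 34 genes of mitochondrial translation and 12 of 29 genes of import, sorting and processing. These 12 had 11 peaks, because MIM1 and MDM38 share 1. In the well-covered libraries the 4 ribosome peaks (IMG1, IMG2, MHR1 and YML6) and the 3 translation peaks were all above 0 in Oxidative minus Reductive Charging, as were 51.5% of all peaks, and none was called. Of the 11 import peaks 3 were above 0, and 1 was called, against 2.78% of all peaks. It was that of MDJ1, a matrix co-chaperone of the Hsp70, named after its values were seen. MDJ1 was lower in Oxidative than in Reductive Charging (log2 fold change −0.74 ± 0.19, edgeR adjusted p = 0.0434) and higher in Reductive Building than in Oxidative (1.17 ± 0.24, adjusted p = 0.0216), where 1.49% of all peaks and no other peak of these lists were called. Its peak was shared with HSP12, a stress gene, and YFL015C. In Reductive Building minus Reductive Charging 0 peaks of these lists were called, against 1.44% of all peaks. OXA1, an inner membrane insertase, and PET122, a translational activator, shared 1 peak, with a log2 fold change of −1.75 ± 0.45 in Reductive Building minus Oxidative (edgeR adjusted p = 0.0520).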

How the data were processed

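The authors deposited raw counts per peak for 1 list of 2086 peaks in 18 libraries. The tools named in the submitters' processing notes are Trimmomatic, Bowtie2 and MACS2, on build R64. Not given in the sources used here are their versions, how reads were counted or shifted, how duplicates were treated, and from which libraries the peak list was made. Gene 5′ ends came from a RefSeq table of R64; promoter sequence was not used here. Of the count columns, 0 were left unmatched to a sample.

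The test was edgeR 4.0.16 in R 4.3.3, by quasi-likelihood with robust dispersion, TMM scaling and filterByExpr, with Benjamini-Hochberg adjustment over all peaks and a threshold of 0.05, in 1 fit of the 3 phases. It was run on all 18 libraries and on the 13 well-covered ones. The filter removed 0 peaks, so all 37 members were tested. Log2 CPM used a prior count of 2. In 3 simulated tables, with Oxidative differing from Reductive Charging at 200 of 2086 peaks, 1.57%, 23.3% and 52.2% of 2-fold, 4-fold and 8-fold changes were recovered with all libraries, and 41.6%, 80.1% and 93.3% with the well-covered ones. The changed peaks were drawn at random from all peaks, so these are not shares for the members. In that well-covered comparison the median SE was 0.39 for members and 0.36 for all peaks. The comparisons with Reductive Building were not simulated.

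The members, the lists and the well-covered set were chosen with earlier results of these data known. Named genes were members called in any comparison, the 3 members at either end of the log2 fold changes of each well-covered comparison, the member with the highest mean CPM of each role, MRPL10, and TOM1, TIM11 and MRP8. Alternatives were relative log expression factors, library totals, nuclear peaks only, no filter and a stricter filter, DESeq2 1.42.0, limma-voom 3.58.1, only the phases compared, parts of the time course, other linking rules, and leaving out each library. Plots used matplotlib 3.10.9.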

Additional observations from a re-analysis of the deposited data

Results flagged for a closer look

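In the 6 well-covered Reductive Charging libraries, 8 peaks had 1 library standing apart from the other 5 by Dixon's test at its 95% level. This was out of 40 groups of values tested, which do not take in every member in every phase. Chance gives about 1 in 20 for independent groups, but these groups share libraries. MRPL13, MRPL28, PET123, MRP17 and RSM25 were also named for their log2 fold changes in these same data. Of the 8 flagged peaks, 7 were at time point 17, the only well-covered late Reductive Charging library. At that time point the level on the log2 CPM scale was 0.41 for MRPL13, −1.62 for MRPL28, −0.51 for PET123, 8.25 for RSM10, 1.53 for RSM25, 10.8 for TIM23 and 4.14 for TOM71. All were below the other 5 libraries except TIM23, which was above them. The remaining one was MRP17 at time point 4, at 0.31. Without time point 17 the log2 fold change of RSM25 in Oxidative minus Reductive Charging was 1.80 ± 0.33 (edgeR adjusted p = 0.0129) and that of RSM7 was −0.52 ± 0.15 (adjusted p = 0.0612).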

How the results depend on the processing

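No paired analysis was possible because the labels give no replicate numbers shared between phases. In the well-covered libraries 2 members were called in Oxidative minus Reductive Charging, against 2.78% of all peaks. The number was 1 under relative log expression factors (2.54% of all peaks), nuclear peaks only (2.4%) and limma-voom (7.57%). In the main fit it was 1 at a 250 bp linking distance and 0 among unshared peaks. In time points 1 to 7 it was 0 (0.144% of all peaks). With all libraries limma-voom gave 1 (4.79%). In Reductive Building minus Oxidative, DESeq2 gave 1 in the well-covered libraries (4.99% of all peaks). Over leave-one-out fits of the well-covered libraries the counts ran 0 to 2 in Oxidative minus Reductive Charging and 0 to 5 in both other comparisons, and with all libraries 0 to 1 in those 2.

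Class medians of the log2 fold change moved by more than 1 SD as follows. In the well-covered libraries, library totals gave 0.60 (ribosome) and 0.69 (import) in Oxidative minus Reductive Charging, beside 0.52 for all peaks. In Reductive Building minus Reductive Charging they gave 0.41 and 0.32, beside 0.49 for all peaks. Relative to all peaks these medians were 0.08, 0.17, −0.08 and −0.18, beside 0.06, 0.19, −0.07 and −0.19 in the main fit. Unshared peaks were only 3 in each class, with MRP8 among the ribosome ones and TIM9 among the import ones. They gave ribosome medians of 0.30, 0.11 and 0.41 in the 3 comparisons and an import median of −0.52 in the last. With all libraries, time points 8 to 18 gave 1.41 (ribosome) and 0.88 (import) in Oxidative minus Reductive Charging, beside 0.48 for all peaks. In Reductive Building minus Reductive Charging the same time points gave 0.47 and 0.29, beside 0.35 for all peaks. Relative to all peaks, those 2 values were 0.12 and −0.06. Only 1 Reductive Charging library of these time points was well covered. Import medians with all libraries were 0.75 and −0.63 under library totals in the first 2 comparisons, beside 0.58 and −0.47 for all peaks. They were −0.47 under limma-voom in Reductive Building minus Oxidative and 0.067 for the nearest peak in Reductive Building minus Reductive Charging. Unshared peaks gave −1.12 (ribosome) and −1.22 (import) in Reductive Building minus Oxidative, and −0.74 and −0.82 in Reductive Building minus Reductive Charging. Leave-one-out medians ran −0.69 to −0.09 (all libraries) and −0.78 to −0.18 (well-covered) for import in Reductive Building minus Oxidative, and −0.27 to 0.06 for ribosome in Reductive Building minus Reductive Charging. The causes were not tested.

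Signs reversed for MRP17 in Oxidative minus Reductive Charging (0.77 in time points 1 to 7), and in Reductive Building minus Reductive Charging for MRP8 (0.63) and MRPL28 (−0.74) at 1000 bp linking, MRP7 (−1.05 without time point 12) and RSM25 (−0.11 without time point 14). MRP7 was −1.04 without time point 12 in Reductive Building minus Oxidative. Library totals moved the median of all peaks to 0.52 in Oxidative minus Reductive Charging and 0.49 in Reductive Building minus Reductive Charging. PET123 was then at 0.021 in the first and RSM7 at 0.25 in the second, but at −0.50 and −0.25 relative to those medians, the sign of the TMM fit. In time points 8 to 18 only 1 Reductive Charging library was well covered, so that fit was not run for it. Median standard errors of the members were 0.39 in Oxidative minus Reductive Charging, 0.55 in Reductive Building minus Oxidative and 0.53 in Reductive Building minus Reductive Charging.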
